A study of Mus musculus with 13 samples.

Results

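Wide H3K9me3 domains were the regions of the H3K9me3 list of Hepa 1-6 cells that spanned 4000 bp or more, and they numbered 966 of 66242 regions, 1.46% of the list. They were chosen by width alone, so their width and the bases they cover are a description and carry no test. Hepa 1-6 is a murine hepatoma cell line. H3K9me3, KAP1, H3K27ac and H3K4me1 were mapped by ChIP-Seq in cells under standard culture, although a treatment note shared by every sample mentions transduction. The RNA polymerases II (PolII) and III (PolIII) were mapped in cells fixed 5 days after transduction with a control or a KAP1-targeting short hairpin RNA (Kap1 KD); the control vector was an empty one per the methods of the study, and transduced cells were selected with puromycin. The line is 1 tumour-derived culture, each of these 8 lists came from 1 library, and the depth of the libraries is unknown. Nothing here therefore measures the spread between cultures, and every test below compares classes of regions or peaks within the deposited lists, whose neighbouring regions are not independent. No KAP1 map of the Kap1 KD cells and no knockdown efficiency were analysed here. H3K27ac lay over the promoters (taken as 250 bp either way from the annotated 5′ end) of Alb, Afp and Hnf4a, 3 of 5 liver genes checked, but not over those of Apoa1 and Ttr, and the control PolII list had a peak over none of the 5.

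H3K9me3 is a histone mark of silenced chromatin. KAP1, encoded by Trim28, is a corepressor without sequence preference of its own that is brought to DNA by Krüppel-associated box zinc finger proteins and there recruits the H3K9 methyltransferase SETDB1, histone deacetylases and heterochromatin protein 1. Genes for these zinc finger proteins lie in clusters, and their last exons, which encode arrays of tandem fingers joined by a conserved linker, are a known site of H3K9me3 and KAP1 in several cell types. H3K27ac and H3K4me1 are found at active or primed regulatory DNA.

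The 2 kinds of DNA sequence that the results turn on are shown first. The linker between tandem zinc fingers is commonly encoded by the motif GGAGAGAAA, which was searched on both strands, and a finger with its linker takes 84 bases. The longest uninterrupted runs of linkers at that spacing inside coding exons covered by wide domains were found in Gm13138 (15 linkers in a row, as in Rex2), and on other chromosomes in Zfp808 and Zfp958 (9 each). The 3 successive units from each gene are given in coding direction from the mm9 assembly (NCBIM37), with the linker in capitals, to show what sequence the zinc finger domains consist of.
Gm13138 (chr4:146431904-146432164, plus strand, coding exon): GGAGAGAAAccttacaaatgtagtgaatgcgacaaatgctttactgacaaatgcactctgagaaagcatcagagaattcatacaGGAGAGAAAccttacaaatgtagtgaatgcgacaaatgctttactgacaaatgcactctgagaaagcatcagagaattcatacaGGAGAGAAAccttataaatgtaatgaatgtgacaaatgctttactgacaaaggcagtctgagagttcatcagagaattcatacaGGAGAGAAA
Zfp808 (chr13:62272871-62273131, plus strand, coding exon): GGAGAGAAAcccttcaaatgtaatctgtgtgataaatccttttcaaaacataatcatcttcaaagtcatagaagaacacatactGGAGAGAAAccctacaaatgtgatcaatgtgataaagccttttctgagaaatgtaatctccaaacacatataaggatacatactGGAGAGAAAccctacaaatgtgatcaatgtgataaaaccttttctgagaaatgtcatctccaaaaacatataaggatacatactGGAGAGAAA
Zfp958 (chr8:4628523-4628783, plus strand, coding exon): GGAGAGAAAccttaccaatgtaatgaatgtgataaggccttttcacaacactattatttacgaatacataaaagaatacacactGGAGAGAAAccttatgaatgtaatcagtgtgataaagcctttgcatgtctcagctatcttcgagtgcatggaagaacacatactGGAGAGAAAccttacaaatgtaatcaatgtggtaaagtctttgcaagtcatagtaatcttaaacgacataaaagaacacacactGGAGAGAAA
The printed units shared 76 to 84 of 84 bases among themselves in Gm13138, 65 to 81 in Zfp808 and 63 to 66 in Zfp958. Between genes, 53 to 67 of the 84 bases were shared. The second kind is the 150 bases around the centre of strong KAP1 peaks inside wide domains, with CpG dinucleotides in capitals. From each kind of place 1 of the named peaks described below is shown. The intergenic peak shown was tied in score with another named intergenic peak that came before it in the order of ties.
Upstream of H19 (chr7:149766970-149767119, plus strand, intergenic): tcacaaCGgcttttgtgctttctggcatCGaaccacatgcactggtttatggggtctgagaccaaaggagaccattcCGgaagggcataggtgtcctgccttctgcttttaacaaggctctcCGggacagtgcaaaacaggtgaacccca
Mocs3 and Dpm1 (chr2:168056623-168056772, plus strand): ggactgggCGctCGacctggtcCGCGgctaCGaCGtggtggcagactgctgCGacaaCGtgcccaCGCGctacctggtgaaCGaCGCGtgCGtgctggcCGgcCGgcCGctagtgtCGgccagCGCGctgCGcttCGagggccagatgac
Spred2 (chr11:19920410-19920559, plus strand, within the gene): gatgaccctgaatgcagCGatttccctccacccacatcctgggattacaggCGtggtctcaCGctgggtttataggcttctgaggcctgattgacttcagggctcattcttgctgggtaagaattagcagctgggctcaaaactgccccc
The centre near Mocs3 held 22 CpGs and 71.3% G+C, the one upstream of H19 held 4 CpGs and 52.0% G+C, and the one in Spred2 held 3 CpGs and 54.0% G+C. These 3 centres, of similar rank in the KAP1 list, thus held from 3 to 22 CpGs.

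The wide domains had a median width of 5562 bp, with quartiles of 4693 and 7361 bp, and reached 67557 bp. Together they covered 6.47 Mb, which was 15.6% of the bases in the H3K9me3 list. There were 418 of at least 6000 bp, 85 of at least 10000 bp and 11 of at least 20000 bp. Just inside the threshold lay regions of 4000, 4004 and 4005 bp, and just outside it regions of 3997, 3996 and 3994 bp, so the limit cuts a continuous range of widths. Their median G+C content was 43.6%, against 45.7% in the 9565 regions from 1000 bp to just under 4000 bp (called mid-size regions) and 46.7% in the 55711 narrower ones.

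Most wide domains consisted of sequence present more than once in the genome. The share of 31-base words of a region that occur at least 2 times in the assembly is called the multi-copy share here. It had a median of 81.5% in wide domains, 37.2% in mid-size regions, 89.6% in the narrower ones and 85.5% in the whole list. In wide and mid-size regions it was split into a low and a high group. Of the wide domains, 500 had a multi-copy share of at least 80% and 269 one under 20%. In regions of the first group most 31-base words could have come from several places. Reads were 100 bp long, so this share does not show how many reads could have. How the authors' mapping placed reads with several map positions is not given in the sources used here. These regions are therefore reported by position with that limit.

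**Figure D1:**
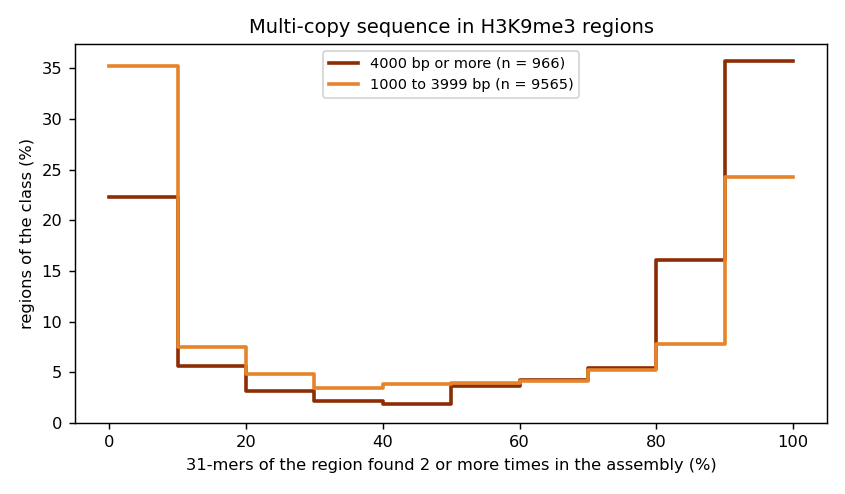
Histogram of the multi-copy share (per cent of 31-base words found 2 or more times in the assembly, x axis, bins of 10) for wide domains and mid-size regions, as per cent of each class (y axis). The bin from 90 to 100% held 35.7% of the wide domains and the bin from 0 to 10% held 22.3%.

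The wide domains were gathered in few places. When those less than 1 Mb apart were joined, 188 clusters resulted, 89 of them with a single domain, while 738 domains (76.4%) lay in 44 clusters of 5 or more and 319 in the 5 largest. The largest cluster held 91 domains in 7.12 Mb of chromosome 15 (chr15:90694103-97817888), in sequence with a median multi-copy share of 6.4%. It covered 67.7% of Slc38a1, a glutamine transporter gene, and 97.2% of the homeobox gene Dbx2, and smaller parts of Nell2, Pdzrn4 and Adamts20. The second held 89 domains in 1.60 Mb of chromosome 13 (chr13:65359619-66964121), with a median multi-copy share of 90.7%, and 27 of them carried at least 3 linker motifs. The third, on chromosome 5 (chr5:143720314-152477095), held 67 domains in largely single-copy sequence (median 9.90%), began over Fscn1, which encodes the actin-bundling protein fascin, and included the zinc finger genes Zfp12 and Zfp316, Cyp3a41a, Cyp3a41b and Mtus2, and 25 of its domains had KAP1. The fourth, on chromosome 4 (chr4:145038471-147016681), held 48 domains over zinc finger genes that include Zfp600 and Rex2. By chromosome, 15 held 141 domains, 14.6% of all, followed by 5 with 123 (12.7%), 13 with 95 (9.83%) and 4 with 93 (9.63%). Of all H3K9me3 regions, 10.7, 8.72, 3.93 and 7.56% lay on these chromosomes, in that order. Chromosomes 9, 14 and 18 had 3 domains each and Y had none.

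The clusters fell into kinds by the other marks they carried. In the cluster of the Speer4 genes on chromosome 5, which belong to a family expressed in testis, all 20 domains overlapped both H3K27ac and H3K4me1. The same held nearly throughout on chromosome 8 (18 and 20 of 20 domains), on chromosome 1 over C130026I21Rik (20 and 24 of 24) and on chromosome 1 over Sp110 and Sp140, which encode nuclear body proteins (13 and 16 of 17). These 4 clusters had 1 KAP1-bound domain among them and no PolII in either list, and all lay in multi-copy sequence (medians of 81.9 to 89.1%). A cluster of 17 domains on chromosome X (chrX:29401418-32116449), which overlapped no coding gene, had H3K27ac over 14 and H3K4me1 over 15, no KAP1, and PolII over 2 domains in each list (median multi-copy share 90.5%). Smaller clusters in largely single-copy sequence carried both marks as well. In that over the Ugt1a genes (median multi-copy share 1.19%) 5 of 9 domains had H3K27ac and all 9 had H3K4me1, and in that over Sfi1 (13.2%) these counts were 6 and 7 of 7, and neither had KAP1. In the chromosome 15 cluster 77 of 91 domains had H3K4me1 but only 9 had H3K27ac. In the chromosome 17 cluster over Tmem181a and Gm2792, by contrast, H3K4me1 lay over 2 of 23 domains while 16 had PolII under Kap1 KD and 5 had it in the control. Whether each domain in a cluster was marked, or only some copies of a repeated unit, cannot be told apart where reads could map to several copies.

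**Figure D2:**
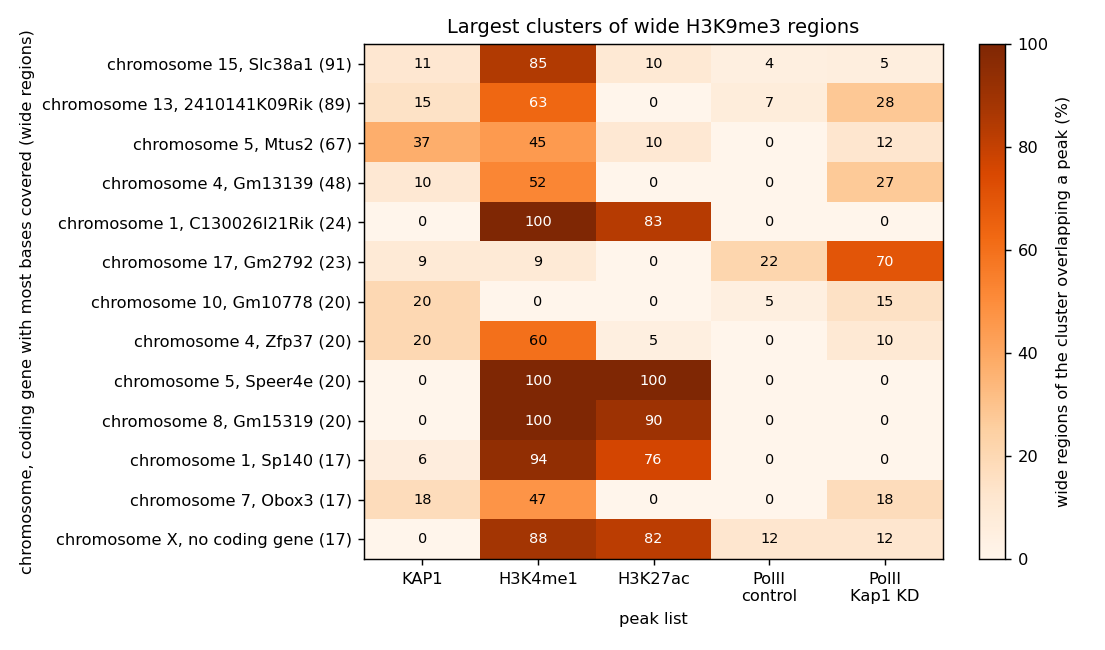
Per cent of the wide domains of each of the 13 largest clusters (rows, named by chromosome and the coding gene with most bases covered, number of domains in parentheses) that overlapped a peak of each list (columns); the number in a cell is that per cent. H3K27ac reached 76 to 100% in 5 clusters and at most 10.4% in the other 8, and PolII under Kap1 KD was highest, 70%, on chromosome 17.

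The 10 widest domains were all without KAP1 and without PolII or PolIII in any list. The widest of all, 67557 bp on chromosome 8 (chr8:19916494-19984050), covered all of Gm15319 and touched the noncoding 2610005L07Rik, AC152164.1 and Gm17279, and overlapped 31 H3K27ac regions and 3 H3K4me1 regions. Another 3 lay on chromosome X, of 37860 bp over Gm14352, 30090 bp in no gene and 28111 bp over Gm14365, with 28, 19 and 18 H3K27ac regions. On chromosome 1 lay 4, of which the domain of 31020 bp overlapped C130026I21Rik and A530032D15Rik, that of 22169 bp C130026I21Rik, Gm16028 and Gm16026, that of 26544 bp Gm16092 and that of 20900 bp Gm2619, Gm16025 and Gm7281. The domain of 28333 bp on chromosome 5 overlapped Gm6370, 4930449I24Rik and Gm3402. The single domain of the 10 with a low multi-copy share (6.38%) was the 26687 bp domain at the 5′ end of Slc38a1 (chr15:96452264-96478950), with 2 H3K27ac and 8 H3K4me1 regions. All 10 also overlapped at least 1 region of both active marks.

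Wide domains touched a small set of genes. At least 1 bp of 266 of 22380 coding genes was covered, a background of 1.19%, and 94 of these were covered over at least 50% of their length and 33 in full. By annotation 349 domains (36.1%) overlapped a coding gene, 112 lay inside genes without touching an exon and 506 (52.4%) overlapped no gene. The central base lay in a gene for 38.9% of wide domains and 31.8% of all H3K9me3 regions. Among other classes, 67 of 5201 pseudogenes, 21 of 1273 lincRNAs and 4 of 1423 snRNAs were overlapped, and none of 1552 snoRNAs.

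Among the 10 coding genes with the most bases in wide domains, C130026I21Rik came first with 164.0 kb in 15 domains, 59.0% of its length. Gm2792 had 95.3 kb in 14 domains. Slc38a1 had 48.4 kb in 5 domains, and its annotated start lay inside one. Sp140 had 39.3 kb (87.9%) and Sprr2a2, of a family of cornified envelope proteins, 38.7 kb (93.4%). Sfi1, which encodes a centrin-binding protein of the centrosome, had 38.0 kb (61.6%), Tmem181b-ps 33.9 kb, the cell adhesion gene Sdk1 33.1 kb in a gene so long that this was 3.39% of it, the oocyte-specific homeobox gene Obox3 31.9 kb and Dbx2 31.5 kb. Of these 10 genes, Gm2792, Sdk1 and Obox3 had a KAP1 peak anywhere in the gene, and all 10 had an H3K4me1 region.

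Zinc finger genes were the family with the most members covered. Of 398 genes with a zinc finger symbol (Zfp, Zkscan, Zscan, Znf or Zik), 33 were overlapped, 8.29% (95% Wilson interval 5.96 to 11.4%), against 1.19% of all coding genes. A KAP1 peak lay somewhere in 28 of the 33, and in 139 of all 266 overlapped coding genes, a count that depends on the length of a gene. The leading member was Zfp316, with 19.3 kb in 2 domains, 94.8% of the gene. Zfp960 had 15.7 kb, Zfp600 13.5 kb, Zfp97 10.2 kb, Zfp12 9.61 kb and Zfp37 8.22 kb. Zfp955b, Zfp345, Zfp113 and Zfp110 had between 7.10 and 7.53 kb. Many zinc finger genes carry provisional names, so coding genes were also picked by sequence: 208 had at least 3 linker motifs in their exons, and 32 of them (15.4%, 11.1 to 20.9%) were overlapped, 13 with a zinc finger symbol and 19 without. Among the latter, 2410141K09Rik had 93.2% of its length covered.

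Within these genes the domains sat towards the end. The annotated end was covered in 22 of the 33 zinc finger genes and the annotated start in 3. Dividing each gene into deciles of its length, a wide domain reached the first decile in 12.1% of the 33 genes, the fifth in 45.5% and the ninth in 84.8%. In the 214 overlapped coding genes of neither zinc finger set the share stayed between 46.3 and 53.7% in every decile. The last exon was touched in 30 of the 33 and lay wholly in 1 domain in 21, compared with 107 and 75 of the 214. KAP1 peaks followed the same course: in 63.6% of the zinc finger genes a peak lay in the last decile, in none in the second and the third, and in 24.2% in the first, where promoters lie. By sequence, 261 of 308 linker motifs in exons of the 32 genes (84.7%) lay inside wide domains.

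**Figure D3:**
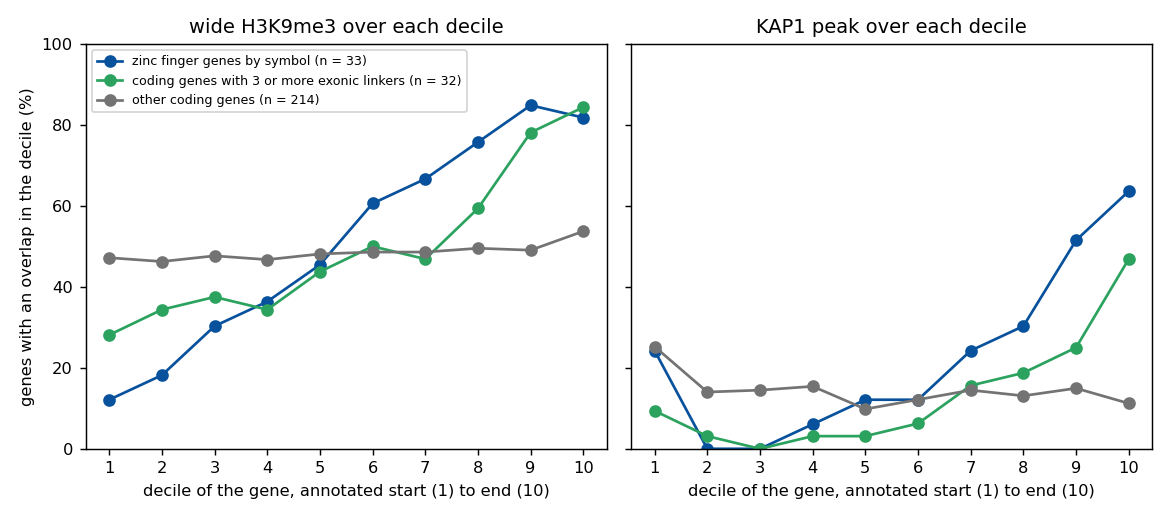
Per cent of genes (y axis) in which a wide domain (left) or a KAP1 peak (right) overlaps each decile of the gene from its annotated start to its end (x axis), for coding genes overlapped by a wide domain. The zinc finger set by symbol (n = 33) and the set by linker motifs (n = 32) share 13 genes; both rise towards the end, to 81.8 and 84.4% for wide domains, and the other coding genes (n = 214) do not.

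The linker motif itself was found in a part of the wide domains. Counted in the central 4000 bp so that width did not enter, 6.83% of wide domains (66 of 966) held at least 3 motifs, as did 1.85% of equally long windows on mid-size regions and 0.125% of 25597 windows of that length spaced over the genome. Over their full length 85 domains held at least 3. Of 891 distances between neighbouring motifs on one strand within wide domains, 589 (66.1%) were exactly 84 bp, the repeat shown in the sequences above, and a further 122 were 168 bp. Of the 85, 28 overlapped a coding gene with at least 3 linker motifs in its exons, 13 only other coding genes, 6 only pseudogenes or noncoding genes, and 38 no annotated gene. KAP1 overlapped 41 of the 85 (48.2%) and 209 of the other 881 domains (23.7%), but the 85 were wider (median 7356 against 5498 bp), which favours any overlap, and the part of width was not tested. H3K27ac overlapped 2 of the 85 (2.35%) and 18.8% of the other 881.

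Other families were covered to different extents. Of 21 UDP-glucuronosyltransferase genes 9 were overlapped, but by 1 domain. These Ugt1a genes share their last exons, and the domain covered up to 8613 bp at that shared end, as in Ugt1a6a and Ugt1a7c, and all 7039 bp of Ugt1a1, whose enzyme conjugates bilirubin. The domain itself overlapped no KAP1 peak, although 7 of the 9 genes contained one outside it. Of 98 cytochrome P450 genes 4 were overlapped, with 19244 bp of Cyp3a41a and 15003 bp of Cyp3a41b, near-identical copies on chromosome 5 in which counts of coverage are uncertain. Of 9 Speer genes 3 were overlapped, 99.2% of Speer4e and 94.8% of Speer4c, as were 3 of 322 vomeronasal receptor genes, with 6074 bp each of Vmn2r20 and Vmn2r21. The single major urinary protein gene of 21 was Mup15, with 4738 bp. None of 1113 olfactory receptor, 144 ribosomal protein, 67 clustered histone, 60 serpin, 53 defensin, 51 keratin, 40 Hox, 36 protocadherin, 30 Rhox, 14 Hspa, 8 Slfn or 4 Scgb genes was touched.

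KAP1 lay over a minority of the wide domains. Of the 966 domains, 250 overlapped a KAP1 peak (25.9%, 23.2 to 28.7%), against a background of 8.53% of all H3K9me3 regions, which are mostly far narrower. At the central base, a measure that does not grow with width, KAP1 was found in 157 wide domains (16.3%, 14.1 to 18.7%), in 17.1% of mid-size regions and in 7.3% of all regions. The difference between wide and mid-size regions on this measure did not pass the test (odds ratio 0.943, 95% interval 0.789 to 1.13, p = 0.559, two-sided Fisher's exact test). It did pass with regions under 500 bp apart merged, lower in wide domains (odds ratio 0.858, p = 0.0466, Fisher's exact test). Its direction turned once regions of like multi-copy share were set side by side, with KAP1 at the centre of 21.9% of wide against 19.6% of mid-size regions where that share was under 20%, 30.5 against 26.1% from 20 to 80%, and 7.6 against 6.47% where it was at least 80%. Neither the first (p = 0.344) nor the last difference (p = 0.333) passed Fisher's exact test, and the one from 20 to 80% was not tested. Per Mb, 42.8 KAP1 peak centres lay in wide domains and 105.6 in mid-size regions, compared with 4.70 over the genome.

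**Figure D4:**
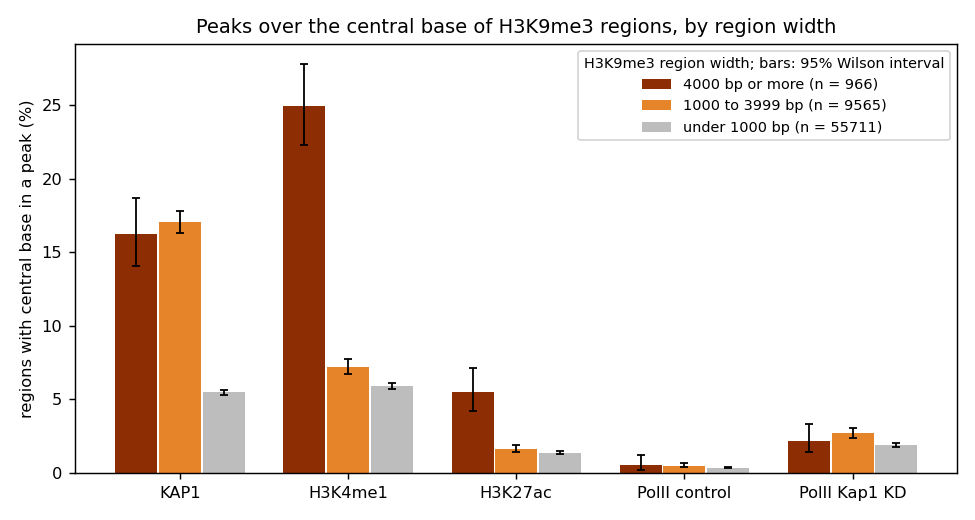
Per cent of H3K9me3 regions (y axis) whose central base lay in a peak of each list (x axis), by region width; bars give 95% Wilson intervals over regions. Wide domains exceed mid-size regions for H3K4me1 (24.9 against 7.21%) and H3K27ac (5.49 against 1.63%), while for KAP1 (16.3 against 17.1%) and both PolII lists the intervals overlap.

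Where KAP1 was present, it lay mainly in the interior. In 155 of the 250 domains every KAP1 peak was wholly inside, in 74 every peak crossed an edge and in 21 both kinds were seen, and 8 domains were spanned by 1 peak. Most (210) had 1 peak, and the highest number was 4. The median share of a domain covered by KAP1, in domains with a peak, was 41.0% (quartiles 26.1 and 60.2%). Counted by peak centres relative to the genome mean, KAP1 was 5.73-fold in the outermost 500 bp inside the edge, 7.05-fold from 500 to 1000 bp, 11.8-fold from 1000 to 2000 bp and 9.15-fold deeper than that. In the 500 bp just outside the edge it was 0.882-fold, and from 5000 to 1000 bp outside 3.06-fold. A peak that reaches over an edge is counted at its centre, and H3K9me3 regions in the surroundings of a domain contribute to the values outside.

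**Figure D5:**
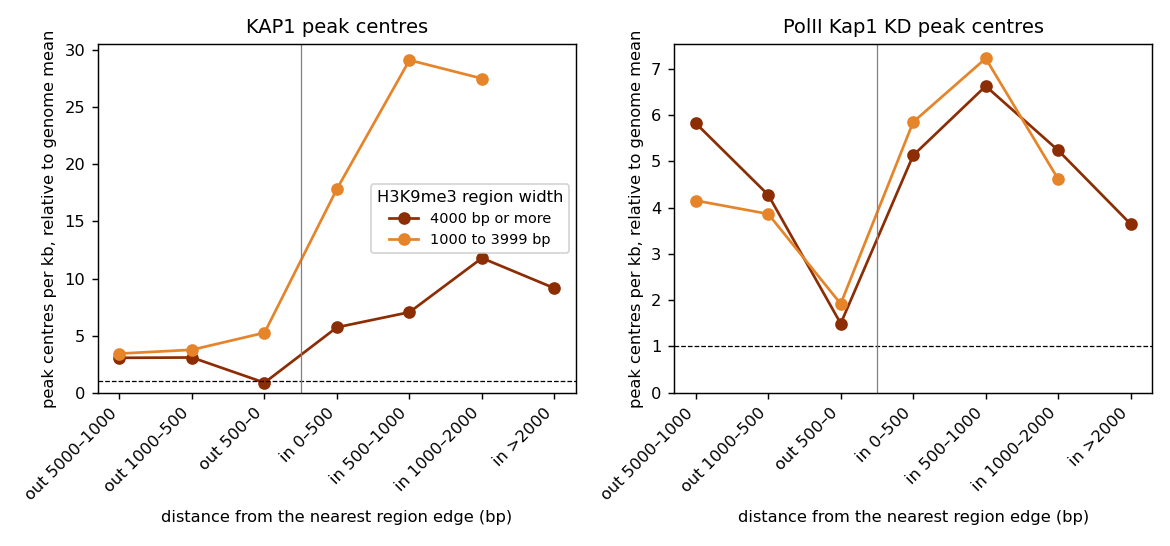
Centres of KAP1 (left) and Kap1 KD PolII peaks (right) per kb relative to the genome mean (y axis, dashed line at 1) by distance from the nearest region edge (x axis; out, outside the region; in, inside), for wide domains and mid-size regions. In wide domains KAP1 peaks at 11.8 from 1000 to 2000 bp inside, below the 27.5 of mid-size regions in the same zone.

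The KAP1 peaks centred in wide domains had high scores. Of 277 such peaks, 223 (80.5%, 75.4 to 84.7%) were above the median score of the KAP1 list, against 60.8% of 3598 peaks centred in other H3K9me3 regions (odds ratio 2.66, 1.96 to 3.61, p = 1.3e-11, two-sided Fisher's exact test). The difference was smaller against the peaks of mid-size regions alone (71.5%, odds ratio 1.65, p = 0.00176 by Fisher's exact test). These peaks were also wider, with a median of 2053 bp against 1113 bp, and whether width carried the score difference was not tested. By place, 171 of the 277 (61.7%) were intergenic, 78 lay in a gene beyond 1 kb from a coding start and 28 within 1 kb of one, and in the other H3K9me3 regions the shares were 62.6, 28.0 and 9.39%.

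The 3 KAP1 peaks with the highest scores in wide domains were taken from each kind of place. Within 1 kb of a coding start the strongest was at Mocs3 and Dpm1, where Mocs3 encodes an enzyme of molybdenum cofactor synthesis (chr2:168055543-168057852, score 3115, the seventh of the list). Next were one over the 5′ end of Obsl1 that reached the start of Inha, which encodes the inhibin alpha chain (chr1:75501619-75503655), and one within Polrmt, the gene of the mitochondrial RNA polymerase (chr10:79201335-79203541). Starts here are those of all coding transcripts. The last peak was centred 318 bp from such a start, and not at the annotated 5′ end of Polrmt. Inside genes were peaks in Spred2 (chr11:19919051-19921918), whose product dampens Ras signalling, in Habp4 (chr13:64270448-64272054) and in Trappc9 (chr15:72639291-72641898). All of these but the first were among the 152 peaks of the list tied at a score of 3100. Ties were taken by chromosome name and position, so these peaks are not stronger than any tied peak left out. Of the intergenic ones, that on chromosome 7 (chr7:149765457-149768632) had its centre 2997 bp upstream of the 5′ end of H19, an imprinted noncoding gene whose upstream region is known as an imprinting control region, and its domain began 1638 bp upstream of H19. Another, on chromosome 18, was tied at 3100, and the third, at chr5:143890055-143891943, scored 2533. The 9 domains had multi-copy shares between 0 and 22.6%.

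Domains with and without KAP1 carried the active marks in different shares, given here without a test. H3K4me1 overlapped 22.0% of the 250 with KAP1 (17.3 to 27.5%) and 58.8% of the 716 without (55.2 to 62.3%), and H3K27ac 7.6% and 20.8%. Multi-copy share moved with this: its median was 37.3% in domains with KAP1 and 87.0% in those without, and KAP1 was found in 10.4% of the domains with a multi-copy share of at least 80%, 48.7% of those between 20 and 80% and 37.9% of those under 20%. The part of mappability in the difference was not tested. On chromosome X none of the 54 domains had KAP1, while 31 had H3K27ac.

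Both active marks were more frequent at the centre of wide domains than of mid-size regions. H3K4me1 lay over the central base of 241 (24.9%, 22.3 to 27.8%) against 7.21% (odds ratio 4.28, 3.63 to 5.04, p = 1.11e-56, two-sided Fisher's exact test), with a background of 6.38% of all H3K9me3 regions. H3K27ac lay over 53 (5.49%, 4.22 to 7.11%) against 1.63% (odds ratio 3.50, 2.55 to 4.82, p = 3.57e-12, Fisher's exact test), with a background of 1.47%. The difference was found in sequence of low and of high multi-copy share: for H3K4me1 27.1% against 5.83% where it was under 20% and 25.2% against 9.54% where it was at least 80%. By any overlap 124 of the 269 domains under 20% had H3K4me1, and the chromosome 15 cluster (median 6.4%) alone had 77 domains with it. Without chromosome 15 the central shares over all multi-copy shares were 21.7 and 5.99%. Domains under 20% were not examined without that chromosome. By any overlap, which favours wide regions, 476 domains had H3K4me1 and 168 had H3K27ac, with backgrounds of 9.58 and 2.64%. In all, 145 domains carried these 2 marks and no KAP1 or PolII, 231 only H3K4me1, 165 only KAP1, and 233 overlapped no peak of KAP1, the active marks or PolII.

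PolII peaks were found over 40 wide domains in the control (4.14%, background 0.584%) and over 132 under Kap1 KD (13.7%, background 3.03%). Both lists had a peak in 23 domains, the control alone in 17 and Kap1 KD alone in 109. The Kap1 KD list was longer throughout, with 12862 peaks against 5015, a ratio of 2.56, and the ratio of peaks in wide domains was 158 to 42, or 3.76. At the central base, 5 domains had control PolII (0.518%, background 0.371%) and 21 had Kap1 KD PolII (2.17%, background 2.02%). Neither differed detectably from mid-size regions (odds ratio 1.03, 0.410 to 2.60, p = 0.814, and 0.805, 0.513 to 1.26, p = 0.399, two-sided Fisher's exact tests). Among regions with a multi-copy share of at least 80%, however, Kap1 KD PolII lay over the centre of 10 of 500 wide domains and 163 of 3062 mid-size regions (5.32%, odds ratio 0.363, 0.190 to 0.692, p = 0.00068, Fisher's exact test), a split chosen after seeing the data. The peaks of all 4 deposited PolII and PolIII lists are numbered in genome order with gaps, and the numbers missing made up 31.3% of the control and 22.6% of the Kap1 KD PolII numbering. Why numbers are missing is not given in the sources used here, so a call absent from a list may have been removed before deposit. Of the 109 domains with Kap1 KD PolII alone, 84 (77.1%) lay in a gap of the control numbering, close to the 70.7% of domains without any PolII, and of the 17 with control PolII alone, 11 (64.7%) lay in a gap of the Kap1 KD numbering, as did 66.7% of those without any PolII.

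Of the 158 Kap1 KD peaks in wide domains 138 (87.3%, 81.3 to 91.7%) met no control peak, against 66.4% of 12704 peaks elsewhere (odds ratio 3.49, 2.18 to 5.59, p = 2.56e-09, two-sided Fisher's exact test). No excess was seen over other H3K9me3 regions, since among Kap1 KD peaks in H3K9me3 regions under 4000 bp the share was 90.7% (odds ratio 0.710, 0.432 to 1.16, p = 0.203, Fisher's exact test). Conversely, 23 of 42 control peaks in wide domains (54.8%, 39.9 to 68.8%) met no Kap1 KD peak, against 13.5% of 4973 elsewhere. Gaps in the numbering were found more often at peaks in wide domains than at peaks elsewhere. A gap counts wherever a number is missing between the nearest listed peaks, so its share also rises with their spacing. Of wide domains without any PolII, 70.7% lay in a gap of the control numbering. Of the 138 Kap1 KD peaks without a control peak, 106 (76.8%) lay in a gap of the control numbering, against 28.6% of such peaks elsewhere, and of the 23 control peaks, 15 (65.2%) lay in a gap of the Kap1 KD numbering, against 35.3%. The part of calls removed before deposit in both contrasts with peaks elsewhere was not tested. Kap1 KD PolII was found over 14.8% of domains with KAP1 and 13.3% of those without, and over 5.95% of domains with a multi-copy share under 20%, 18.8% of those between 20 and 80% and 15.8% of those with at least 80%. With 1 library a condition, the knockdown, the library and its depth cannot be told apart.

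Control PolII over the central base was found in 5 domains. The pair in Kcnq1, a potassium channel gene of an imprinted cluster, had it in both lists: at chr7:150410607-150415005 a control peak scored 666 and a Kap1 KD peak 1328, and at chr7:150434013-150442174 the scores were 46 and 128. Scores are the authors' and were not comparable between lists. A domain in 2810474O19Rik (chr6:149272467-149278054) also had both. The one in Pvt1, a long noncoding gene beside Myc (chr15:61930123-61934673), and the one in Gm2792 (chr17:6370720-6377252) had the control peak only. Of the 18 domains with only Kap1 KD PolII at the centre, the 5 widest were 10061 bp on chromosome 16 in no gene, 8783 and 8773 bp on chromosome 13 over the noncoding Gm17735 and Gm7822, and 7264 and 7248 bp on chromosome 3. The last 2 lay in repeated sequence (multi-copy share 99.8% each), with a U1 small nuclear RNA gene each at the centre (chr3:96263947-96264112 and chr3:96254369-96254534), both had KAP1, and no control numbers were missing there. A control PolII peak also lay over each of these U1 genes, off the central base, so that both lists had PolII in these 2 domains. The other 3 had no control PolII anywhere, but 11, 22 and 16 control numbers were missing around them, so that control calls may have been removed there.

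Coding genes whose start lay in a wide domain rarely had PolII at the promoter. Of 90 such genes 3 had a control peak over the promoter (3.33%, 1.14 to 9.35%) and 3 a Kap1 KD peak, against 13.1 and 23.3% of all 22380 coding genes. Some of the 90 are copies in multi-copy sequence, such as Sprr2a1 to Sprr2a3 and H2-Q6 and H2-Q7, in clusters with median shares of 99.4 and 99.7%. The part of mappability in this difference was not tested. H3K4me1 lay over 35 of these 90 promoters (38.9%, 29.5 to 49.2%), against 11.8% of all coding genes. H3K27ac lay over 17 (18.9%, 12.1 to 28.2%), a share near the 19.9% of all coding genes. The 33 overlapped zinc finger genes, whose starts were mostly outside the domain, had control PolII at 9 promoters (27.3%), Kap1 KD PolII at 13 (39.4%) and H3K27ac at 14 (42.4%), compared with 13.1, 23.3 and 19.9% of all coding genes.

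PolIII peaks touched few wide domains. In the control 24 of 966 overlapped one (2.48%, background 1.07%) and under Kap1 KD 13 (1.35%, background 0.245%). The Kap1 KD list was far shorter, 431 against 2772 peaks. On chromosomes 1 to 4, 14 of 224 domains had a control peak and 1 had a Kap1 KD peak, while on the other chromosomes the counts were 10 and 12 of 742. The whole lists were split in the same way, since 2480 of the 2772 control peaks (89.5%) but 89 of the 431 Kap1 KD peaks (20.6%) lay on chromosomes 1 to 4. Among all H3K9me3 regions the control list overlapped 3.81% on these chromosomes and 0.134% elsewhere, so its PolIII counts are not comparable between chromosomes or with the Kap1 KD list. Numbers were missing from both PolIII lists too, 30.4% of the control and 55.0% of the Kap1 KD numbering.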

How the data were processed

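Per the methods of the study, ChIP-Seq reads of 100 bp were mapped with Bowtie to mm9, KAP1 and PolII peaks were called with MACS against total input, and histone regions with ChIP-Part. The PolIII caller, the thresholds and the treatment of reads with several map positions are not given in the sources used here. The deposited lists hold start and end positions, and the authors' KAP1, PolII and PolIII lists also a score per peak, used only to rank peaks within a list. Files hold no counts, so depth is unknown. Of 13 samples, 8 had a list, and the 5 inputs were not analysed here.

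Overlap meant at least 1 bp. Genes were those of GENCODE M1 on NCBIM37 (mm9), and positions count from 1. Shares carry 95% Wilson intervals, which cover counting error over regions only. Classes were compared by two-sided Fisher's exact tests (SciPy 1.17.1, Python 3.11.15), checked on simulated data, with a threshold of 0.05 and no adjustment over the 7 tests. Odds ratio intervals use the normal approximation of the log odds ratio. Multi-copy share used all 31-base words of the assembly on both strands. Members, lists and tests were chosen with earlier results of these data known. Named items were the 10 widest regions, the 3 highest-scoring KAP1 peaks of each kind of place, the 10 coding and 10 zinc finger genes with most bases covered, 2 per other family, regions with central PolII (5 per list when over 10) and 3 regions on each side of 4000 bp. A count of linkers in proteins was not run, as protein sequences were not used here.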

Additional observations from a re-analysis of the deposited data

How the results depend on the processing

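No paired analysis was possible because each group with a list had 1 library. Of 81 alternatives, 38 of them added after seeing the data, 57 left direction and call as they were, or a count within 1.5 times. The excess of H3K4me1 and H3K27ac at the centre of wide domains and of high KAP1 scores passed the threshold under every alternative tried. KAP1 at the centre turned to a higher share in wide domains against all narrower regions (odds ratio 2.51, p = 3.59e-21, here and below by Fisher's exact test), for peaks above the median score (1.20, p = 0.0552), and within regions of under 20% (1.15, p = 0.344) or at least 80% multi-copy share (1.19, p = 0.333). With regions under 500 bp apart merged it was lower (0.858, exact p = 0.0466). Control PolII turned lower for domains from 3000 bp (0.660), from 6000 bp (0.953) and in regions of at least 80% multi-copy share (0.277, exact p = 0.238), and without passing the threshold it was 3.83 under 20% (1.07 to 13.6, exact p = 0.0612) and 2.26 for peaks above the median score (exact p = 0.0956). Kap1 KD PolII turned higher after merging (1.14) and against all narrower regions (1.08), and in regions of at least 80% multi-copy share it was lower and past the threshold (0.363, exact p = 0.00068). None of the other PolII values passed the threshold.

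Kap1 KD PolII peaks without a control peak were no longer more frequent in wide domains when compared within H3K9me3 regions, in all (0.710), under 20% multi-copy share (0.565, exact p = 0.342) or at least 80% (0.814, p = 0.536). That alternative differs by construction in the peaks compared with. The number of coding genes overlapped was 266, and 428 from 3000 bp, 138 from 6000 bp, 407 after merging, 94 with at least 50% covered, 128 in domains of under 20% and 103 in domains of at least 80% multi-copy share. For zinc finger genes 33 became 53 from 3000 bp, 10 with at least 50% covered, and 20 and 6 in domains of under 20% and at least 80%. The causes of the other changes were not tested. Leaving out chromosome 15 or chromosome 5 changed no call and no count by 1.5 times. Unknown depth and single libraries limit every comparison of lists.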
